A study of Mus musculus with 4 samples.

Results

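Retinoic acid is made, bound and destroyed by a small set of proteins, and 10 of their genes were followed here through the cell types of the mouse gonad and mesonephros when sex is being decided. These genes were taken by name, as a list, from the 21495 genes of the integrated count table: Aldh1a1, Aldh1a2 and Aldh1a3 (synthesis), Dhrs3 (return of the precursor to retinol), Cyp26a1 and Cyp26b1 (breakdown), Crabp1 (binding in the cytoplasm) and Rara, Rarb and Rarg (receptors). All 10 were in the table. For each gene, the unique molecular identifiers (UMIs, each standing for 1 captured RNA molecule) were summed over the cells of 1 type in 1 sample and scaled to 1000000 UMIs of those cells (CPM).

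Retinoic acid is made from retinol by way of retinal, which the ALDH1A enzymes oxidise in the last step and which DHRS3 turns back to retinol. The acid enters the nucleus and binds the RAR receptors, which sit on DNA together with RXR partners, while the CYP26 enzymes oxidise and so clear it. In the fetal gonad the mesonephros is known as a source of retinoic acid, and CYP26B1 made by somatic cells of the early testis is known to keep it away from the germ cells, in which it would otherwise induce Stra8 and entry into meiosis.

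The 4 samples were single-cell RNA-seq libraries of gonad with mesonephros, each a pool of 3 to 4 pairs, and each group held 1 sample. The XY KO embryos (1 sample at E11.5 and 1 at E11.75) carried a homozygous CRISPR deletion of the microRNA cluster miR-17~92 and were made by tetraploid complementation from edited XY G4 embryonic stem cells, so they descend from 1 cell line. The XY control at E11.5 came from the unedited parental G4 line. The XX control at E11.5 was bred from C57BL/6J males and 129 females and therefore differed from the XY samples in how the embryos were made as well as in sex. The labels give the strain of all of them as C57BL/6 x 129S4/SvJae. The samples are called the XY control, the E11.5 KO, the E11.75 KO and the XX control, and values given as 4 numbers stand in that order.

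The samples held 23527, 17057, 8492 and 3669 cells with median depths of 3893, 4763, 3921.5 and 15509 UMIs per cell, and between 37841392 and 105192238 UMIs in all. The study's methods name the KO samples in the other order where they list cell numbers, whereas the sample labels, the endings of the cell names and the deposited annotation all give 17057 cells to the E11.5 KO. The highest beta globin share of a cell was 0.388% in that library and 0.724% in the other KO library, each just below the filter limit that the methods state for the stage given by the labels. The stages were therefore taken from the labels. The cells carried the authors' annotation of 13 cell types, several of which are renamed here. The deposited Supporting cells are called Sertoli cells and the Bipotential progenitors pre-supporting cells. The Epithelial cells are called coelomic epithelium and the Mesonephros cells mesonephric mesenchyme. Markers fixed for a type, summed in CPM, were highest there in 40 of the 48 type and sample pairs with at least 50 cells. The 8 exceptions were the pre-supporting and the supporting-like cells of every sample, whose markers were shared with neighbouring types. Taken singly, only 1 or 2 of the 5 coelomic epithelium markers and 2 or 3 of the 5 mesenchyme markers were highest in their own type. Between 0.880% and 1.96% of the barcodes of a sample also occurred in another one. Mir17hg, the host transcript of the deleted cluster, stood at 19.8, 155.8, 161.1 and 18.2 CPM over all cells. It was thus higher in both KO samples. The chemistry reads the end of a transcript, and the positions of these UMIs and the borders of the deletion were not analysed here, so this level does not check the deletion. Xist was at 825.9 CPM in the XX sample and at most 0.449 in the XY samples. Sertoli cells numbered 752, 24, 168 and 2, and the E11.75 KO sample held only 38 immune and 8 adrenal cells, so that these types are left out of comparisons where under 50 cells were present. Since each group held 1 sample, no difference could be tested: the intervals below cover counting error only, and a difference of at least 1.5-fold was counted where a gene had at least 100 UMIs over both samples in a type with at least 50 cells in each.

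The deleted cluster encodes 6 microRNAs of 4 seed families, on chr14 between 115043684 and 115044496 (GRCm38.p6, plus strand). Their mature sequences from RefSeq are shown, with the seed (bases 2 to 8) in capitals, because the seeds decide which of the 10 genes could be bound directly.
miR-17-5p: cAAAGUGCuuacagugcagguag
miR-20a-5p: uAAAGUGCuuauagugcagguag
miR-18a-5p: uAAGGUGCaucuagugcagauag
miR-19a-3p: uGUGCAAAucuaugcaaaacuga
miR-19b-3p: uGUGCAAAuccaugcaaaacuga
miR-92a-3p: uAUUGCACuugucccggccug
Sites for these seeds were searched in the longest annotated 3′ UTR of each gene (mm10, GENCODE M21). Only Cyp26b1 and Rarb held one, shown in capitals, in both cases for the shared seed of miR-17-5p and miR-20a-5p. The Cyp26b1 site pairs with the whole seed (7mer-m8), and the Rarb site pairs with the seed up to base 7 and ends in an A outside it (7mer-A1).
Cyp26b1, bases 2377 to 2383 after the stop codon: tgcagattgaaGCACTTTcaaagttaggc
Rarb, bases 691 to 697 after the stop codon: gttaatgatgtCACTTTAaattaaaagtg
No member held an 8-base site. Over all 17348 genes with an annotated 3′ UTR, 45.2% held a site of some kind and 12.7% an 8-base site. A match is a feature of the sequence and does not show binding.

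The members occupied different compartments. Aldh1a2 and Crabp1 UMIs lay mainly in the mesonephric mesenchyme (50.7% to 66.1% and 76.0% to 80.8% of all UMIs of the gene in a sample). Rarb, Rarg and Dhrs3 also had most of their UMIs in this largest cell type. It held 45.5% to 52.0% of the cells of a sample. Of all UMIs it held 42768920 of 105192238, 43486834 of 90233642, 14481278 of 37841392 and 28715043 of 67952558, against which these shares are to be read. Per UMI, Aldh1a2 was highest in mesonephric epithelium in every sample. In CPM, Aldh1a1 was highest in adrenal cells in each sample with 50 of them, Cyp26b1 in Sertoli cells in the XY control and in endothelial cells in the other samples, Aldh1a3 in mesonephric tubules in 3 samples, Rarg in endothelial cells in every sample and Rara in adrenosympathetic cells in every sample. Such first places can rest on overlapping intervals, as for Cyp26b1 and Aldh1a3 in the XX control. Cyp26a1 was nearly absent, with 112 UMIs in 93 of 52745 cells.

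**Figure D1:**
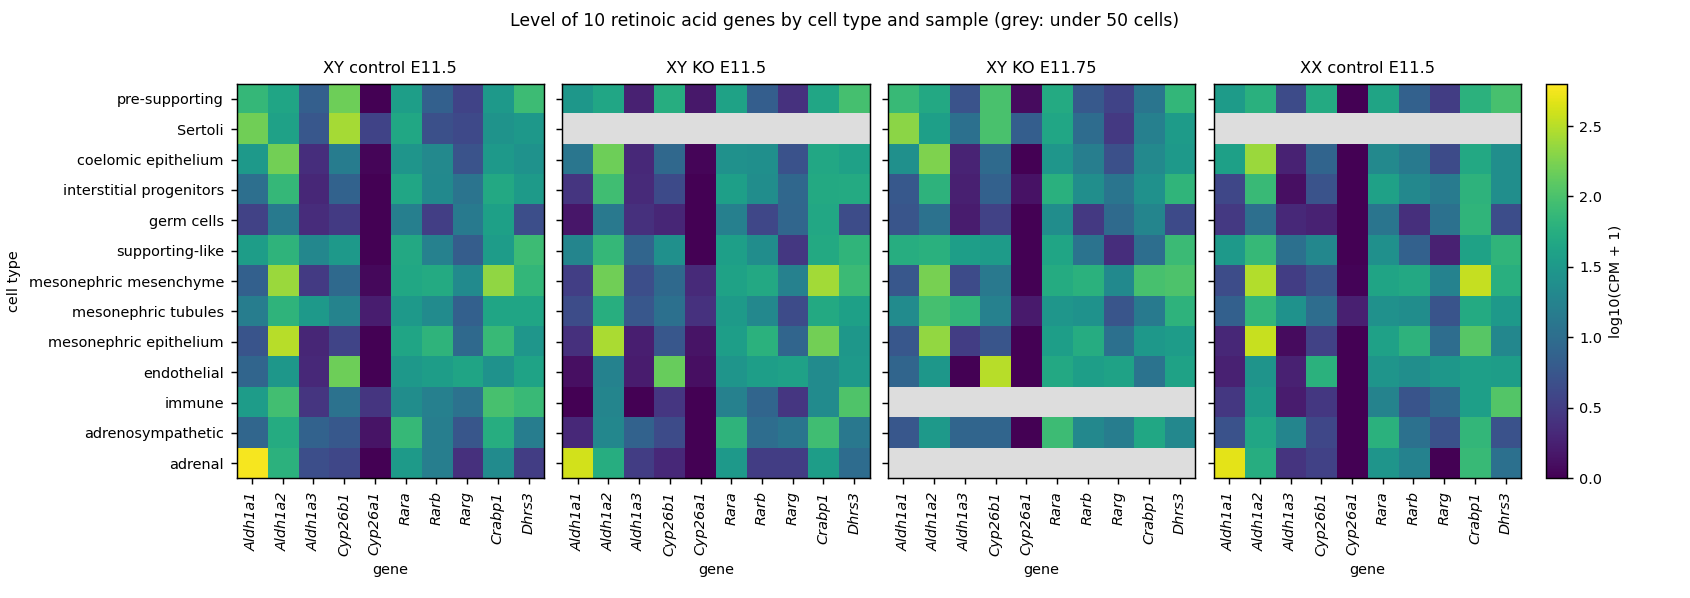
Level of the 10 genes (columns) in the 13 cell types (rows) of the 4 samples, as log10(CPM + 1) from summed UMIs; grey rows are types with under 50 cells. Aldh1a2 and Crabp1 are bright in mesonephric mesenchyme, Cyp26b1 in Sertoli, pre-supporting and endothelial cells, and Aldh1a1 in adrenal cells.

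The comparison of the E11.5 KO with the XY control sets a KO and a control library of the same stage side by side. With 1 sample of each, the deletion cannot be told apart from the edited cell line, the pool of embryos or the library. In the KO library Aldh1a1 was lower in 5 of the 6 types in which it could be counted, Cyp26b1 in 3 of 6 and Aldh1a2 in 3 of 11, while Crabp1 was higher in 3 of 10 and Dhrs3 in 2 of 9. The 3 types of Aldh1a2 were mesenchyme, endothelium (16.5 against 29.5 CPM) and adrenosympathetic cells (18.9 against 51.4 CPM, from 17 and 124 UMIs). Rara (10 types) and Rarb (6 types) stayed within 1.5-fold in every type counted. Of 64 gene and type pairs counted among the members, 13 were at least 1.5-fold lower, where 5.13% of all gene and type pairs passed the same fold, and 6 were higher, where 2.11% passed. Pairs of the same gene share a library and are not independent of each other. Of the 13 lower pairs 10 had a ratio past 1.5-fold under every planned setting that counted them. The setting with a minimum of 500 UMIs left out pairs with fewer. Settings with another fold or minimum count leave a ratio unchanged. The share of all gene and type pairs that held under every setting was not determined in any of the comparisons, so these counts describe the members only. Of the 6 higher pairs 2 held likewise, Crabp1 in mesonephric epithelium and Aldh1a3 in mesenchyme. Crabp1 (0.50 at the least) and Dhrs3 (0.45) in coelomic epithelium were among those that did not. Aldh1a3 went both ways, lower in tubules and higher in mesenchyme, and the remaining lower pair was Rarg in germ cells.

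The E11.75 KO was compared with the same XY control at E11.5, so that the stage and the deletion cannot be told apart there. Crabp1 was lower in 10 of 11 types, the most of any member, and Cyp26b1 was lower in 3 types (pre-supporting, Sertoli and coelomic epithelial cells) but higher in endothelial cells and mesenchyme. Aldh1a1 was not lower in any of the 6 types counted. Of 66 pairs, 15 were lower (7.04% of all gene and type pairs) and 8 higher (15%). In this library the median gene itself stood 0.11 to 0.19 (log2) above the control, and genes with longer 3′ UTRs had higher ratios, with a Spearman correlation across genes of 0.34 to 0.47 depending on the type. Under every planned setting that counted them 10 of the lower and 3 of the higher pairs passed the fold. Relative to the median gene 8.36% of all gene and type pairs were higher, and 4 of the 66 pairs of the members, all among the 8. These 4 were Aldh1a3 in both tubules and mesenchyme, Cyp26b1 in endothelial cells and Dhrs3 in interstitial progenitors.

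The XX control against the XY control, both at E11.5, sets the sexes side by side. Cyp26b1 was lower in the XX library in each of the 6 types in which it was counted, Aldh1a1 in 3 of 6, and Crabp1 was higher in 6 of 12. Of the 6 Cyp26b1 values, those in pre-supporting cells and mesenchyme passed the fold under every setting that counted them. At least 1 setting left log2 −0.49 in coelomic epithelium, −0.48 in tubules, −0.54 in supporting-like cells and −0.50 in endothelium. Of 66 pairs 13 were lower (9.53% of all gene and type pairs) and 6 higher (1.89%). Under every planned setting that counted them 5 of the lower and 2 of the higher pairs passed the fold. The median gene shifted by −0.17 to −0.03 (log2) over the types, and by −0.13 to 0.02 in the E11.5 KO. The Spearman correlation of ratio with 3′ UTR length was −0.35 to −0.06 in the XX control and −0.19 to 0.10 in the E11.5 KO. All 3 comparisons share the XY control library, so a value particular to that library moves each of them.

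**Figure D2:**
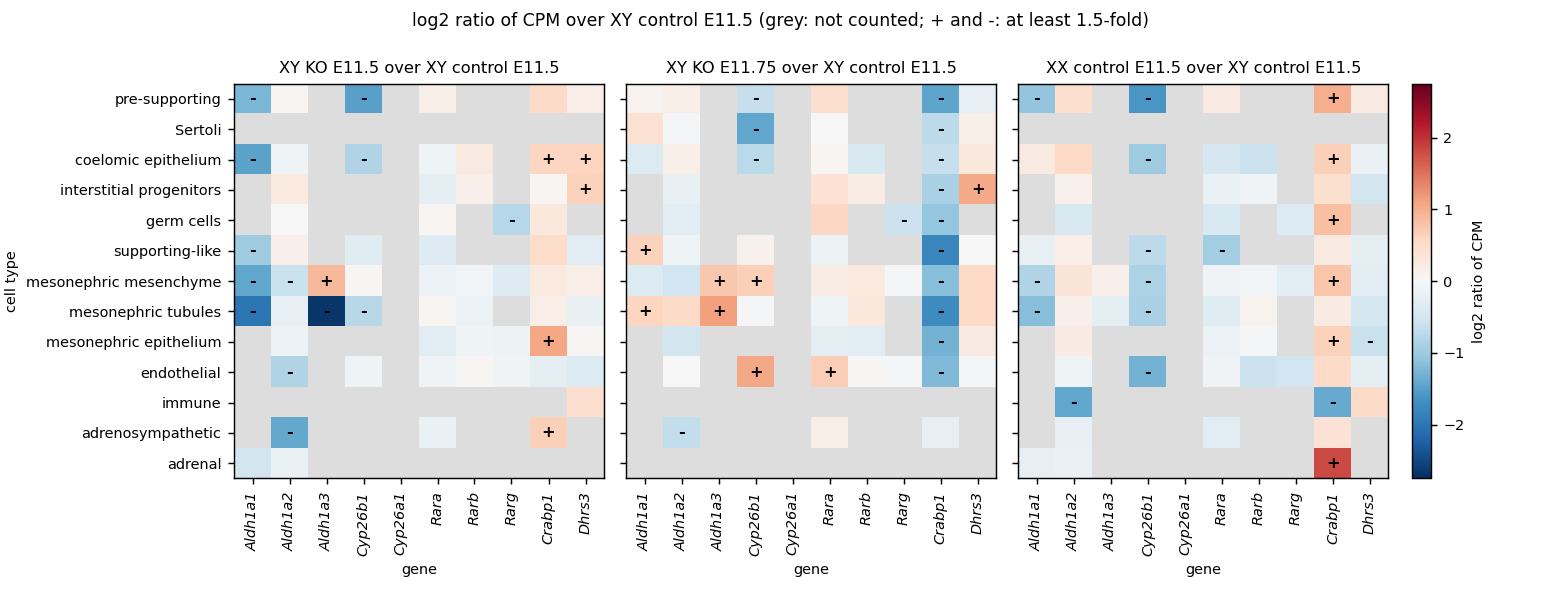
Ratio (log2) of levels to those of the XY control for the 10 genes (columns) and 13 cell types (rows) in the 3 comparisons; + and - mark ratios of at least 1.5-fold, and grey cells had under 100 UMIs or under 50 cells of the type in a sample. Cyp26b1 and Aldh1a1 are blue in pre-supporting cells of the E11.5 KO and the XX control, and Crabp1 is blue in nearly every type of the E11.75 KO.

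Cyp26b1 encodes the retinoic acid-clearing enzyme of the fetal testis and lies on chr6:84571414-84593908 (mm10, minus strand). In pre-supporting cells, the bipotential precursors of Sertoli and granulosa cells, it stood at 152 CPM (95% Poisson interval 143 to 161) in the XY control, 53.9 (48.2 to 60.1) in the E11.5 KO, 97.2 (88.4 to 107) in the E11.75 KO and 50.1 (44.9 to 55.8) in the XX control. The XY control was thus highest and the KO at E11.75 intermediate, while the E11.5 KO and the XX control had overlapping intervals. The log2 ratios over the XY control were −1.49 (95% binomial interval −1.68 to −1.32), −0.64 (−0.80 to −0.49) and −1.60 (−1.78 to −1.42). The technical replicates of a sample, called runs here, shared only 40, 19 and 1 barcodes in the XY control, the E11.5 KO and the XX control. They thus held largely different cells of the same sample. The runs gave 154 and 149 CPM in the XY control, 51.2 and 56.4 in the E11.5 KO and 46.2 and 53.9 in the XX control. Those of the last 2 samples overlapped each other.

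Sertoli cells, which enclose the germ cells of the testis, also held the most Cyp26b1 in the XY control, with both KO samples below it and overlapping each other. Cyp26b1 was at 264 CPM (249 to 280) in the XY control, at 85.9 (45.7 to 147) in the 24 Sertoli cells of the E11.5 KO and at 97.4 (79.3 to 118) in the 168 of the E11.75 KO. The last value was 2.70-fold below the control (log2 −1.43, interval −1.75 to −1.14). In the XY control the Sertoli interval lay above that of pre-supporting cells, whereas in the E11.75 KO the intervals of both types overlapped. The 2 cells of this type in the XX sample, deposited as Supporting, held no Cyp26b1 UMI, which allows up to 62.2 CPM.

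Markers of Sertoli cells moved with the level in pre-supporting cells. The 5 markers (Sox9, Amh, Dhh, Ptgds and Sox8) summed to 209, 27.9, 99.6 and 12.98 CPM in pre-supporting cells, against 1380 CPM in the Sertoli cells of the XY control. With the pre-supporting cells holding a UMI of any of these markers set aside, a choice made after seeing the data, 70.7%, 88.8%, 79.2% and 84.7% of the cells remained and Cyp26b1 was at 139, 52.0, 86.3 and 57.5 CPM. The cells were not thinned for this, and their median depths were 4522, 5349, 4661 and 17498.5 UMIs. A shallow cell shows a marker less often, so cells expressing the markers can remain, more so in the XY samples. The log2 ratios were then −1.42, −0.69 and −1.27. Joining pre-supporting with Sertoli cells gave −1.80, −0.97 and −1.93.

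The share of pre-supporting cells with a Cyp26b1 UMI followed the same order once depth was made equal. After each cell was thinned to 3000 UMIs (shallower cells, 173, 54, 93 and 3, left out), 31.1%, 12.5%, 19.7% and 11.46% of them had one. Without thinning the shares were 40.5%, 20.02%, 25.1% and 38.6%, the deeper XX cells lying near the XY control. In germ cells, which should lack the gene, the thinned share was 0% to 0.633% at median depths of 9330 to 40644 UMIs, against 4717.5 to 17524 in pre-supporting cells. Germ cells also held less of the mesenchyme markers (2.82% to 4.17% of the mesenchyme level) than pre-supporting cells did (11.4% to 15.4%), so their share can understate the free RNA of pre-supporting cells.

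Endothelial cells were the other site of Cyp26b1, and here the order of the samples was different. The level was 150.1 CPM (140 to 161) in the XY control, 139 (126 to 153) in the E11.5 KO, 316 (284 to 350) in the E11.75 KO and 60.6 (51.3 to 71.1) in the XX control. The E11.5 KO thus overlapped the XY control in endothelium while lying 2.81-fold below it in pre-supporting cells. The E11.75 KO was 2.11-fold above the control (log2 1.07, interval 0.89 to 1.25), or 0.73 relative to genes with 3′ UTRs of like length. The XX control was lower by log2 −1.30 (−1.57 to −1.05). With XX cells of 30000 or more UMIs left out, a range absent from the XY samples, this ratio was −0.50 and no longer past the fold.

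**Figure D3:**
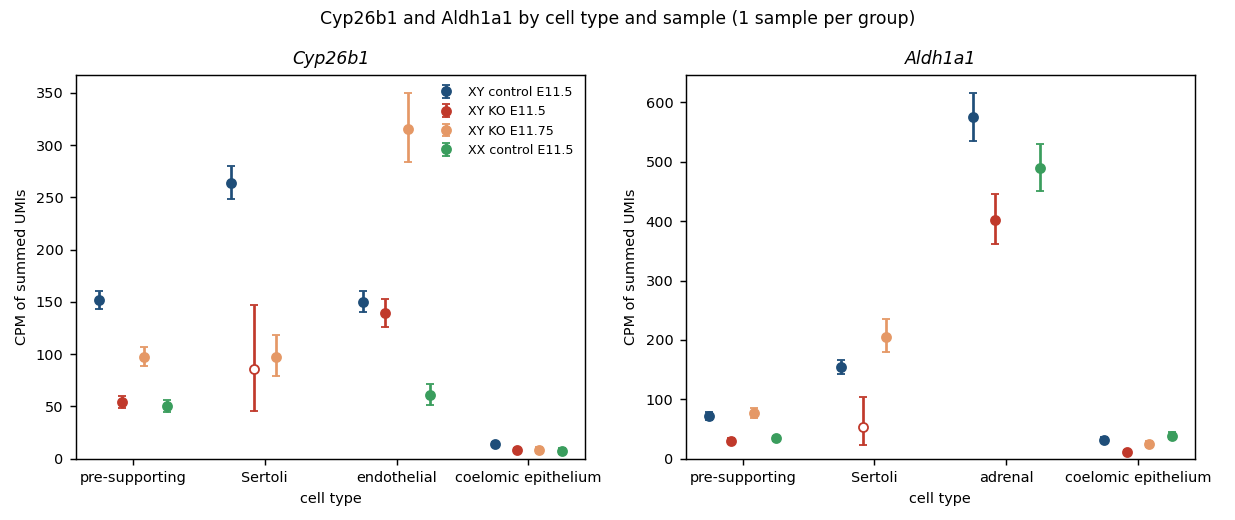
CPM of summed UMIs with 95% Poisson intervals for Cyp26b1 (left) and Aldh1a1 (right) in 4 cell types of the 4 samples, each point being 1 sample and open points having under 50 cells. In pre-supporting cells the XY control and the E11.75 KO lie above the E11.5 KO and the XX control for both genes, and endothelial Cyp26b1 is highest in the E11.75 KO.

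In the coelomic epithelium, the surface layer from which supporting cells arise, Cyp26b1 was low in all samples (13.8, 7.82, 8.22 and 6.94 CPM) with the XY control the highest. Mesonephric mesenchyme held 8.02, 8.16, 12.7 and 4.39 CPM. The E11.75 KO was above the control in each of the 4 mesenchyme clusters, by log2 0.64 to 0.90, and the interval of the smallest cluster reached −0.00. In mesenchyme as a whole this ratio was 0.67. It was 0.51 with TMM factors, 0.52 relative to the median gene and 0.38 relative to genes of like 3′ UTR length, all short of the fold. The cluster ratios were not rescaled in these ways. For the E11.5 KO the clusters went both ways. Its log2 ratios in mesenchyme 1 to 4 were −0.32 (−0.83 to 0.17), −0.46 (−0.91 to −0.02), 0.09 (−0.27 to 0.44) and 0.72 (0.08 to 1.41). In tubules the E11.5 KO was lower as a whole (9.82 against 16.7 CPM) but higher within tubule cluster 1 (87.7 against 42.5 CPM, log2 1.06, from 33 UMIs in 44 cells). That cluster made up 4.78% of its tubule cells and 31.3% of those of the XY control.

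Cyp26a1, a related clearing enzyme on chr19:37697798-37701536, reached the minimum for a comparison in no type. Of its 112 UMIs, 50 came from mesonephric mesenchyme of the E11.5 KO, in 39 of 8863 cells, against 6 UMIs in 5 of 11121 cells of the XY control, none in the E11.75 KO and 2 in the XX control. In CPM this was 1.15 (0.853 to 1.52) against 0.140 (0.0515 to 0.305), with at most 0.207 allowed by the count of 0 in the E11.75 KO. The UMIs were found in both runs of the E11.5 KO (22 and 28) and mainly in mesenchyme clusters 3 (31 UMIs) and 2 (16). Sertoli cells gave 11 UMIs in the XY control and 6 in the E11.75 KO, while the pre-supporting cells of the 2 controls gave none.

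Aldh1a2 encodes the main enzyme of retinoic acid synthesis in the mesonephros and lies on chr9:71215789-71296243. Its level was highest in mesonephric epithelium, at 312, 277, 219 and 367 CPM. Mesonephric mesenchyme held 238, 154, 166 and 301 CPM and coelomic epithelium 161, 151, 179.8 and 236. The intervals of mesenchyme and coelomic epithelium overlapped in both KO samples. Both KO samples lay below both controls in mesenchyme and in mesonephric epithelium. In coelomic epithelium the E11.75 KO did not lie below the XY control. Pre-supporting cells held 43.3, 44.9, 48.2 and 59.6 CPM and germ cells 9.41 to 12.9. As a share of the mesenchyme level this was 18.2% to 29.1% in pre-supporting cells, where mesenchyme markers stood at 11.4% to 15.4%, and 3.12% to 8.23% in germ cells, where the markers stood at 2.82% to 4.17%. In endothelium Aldh1a2 was at 12.4% of the mesenchyme level in the XY control and 10.7% in the E11.5 KO. The mesenchyme markers there stood at 7.54% and 4.16%, and the part of free RNA in the endothelial difference was not tested.

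The mesenchyme difference was 1.54-fold in the E11.5 KO (log2 −0.62, interval −0.67 to −0.58) and did not pass the fold in the E11.75 KO. With TMM factors (−0.51), relative to the median gene (−0.53), relative to genes of like 3′ UTR length (−0.56) or with run 1 of the E11.5 KO alone (−0.57) the E11.5 KO value did not pass it either. It was not equal over the 4 mesenchyme clusters. In mesenchyme 1, where Aldh1a2 was highest, the levels were 350.4, 233, 203 and 466 CPM, and in mesenchyme 2 they were 238, 166, 163 and 292. In mesenchyme 3 (121, 95.5, 126 and 172) the E11.75 KO was no longer below the XY control. Mesenchyme 4, where it was lowest, held 73.3, 86.3, 77.6 and 102 CPM, and the KO libraries were not below the XY control there. Mesenchyme 1 made up 38.9% of the mesenchyme cells in the XY control, 27.1% in the E11.5 KO, 49.2% in the E11.75 KO and 32.0% in the XX control. Thinning kept 7549 of 11121, 7810 of 8863, 2270 of 3865 and 1703 of 1714 mesenchyme cells. Of the kept cells 41.1%, 31.0%, 32.8% and 49.0% had an Aldh1a2 UMI, against 1.19% to 6.33% of germ cells.

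**Figure D4:**
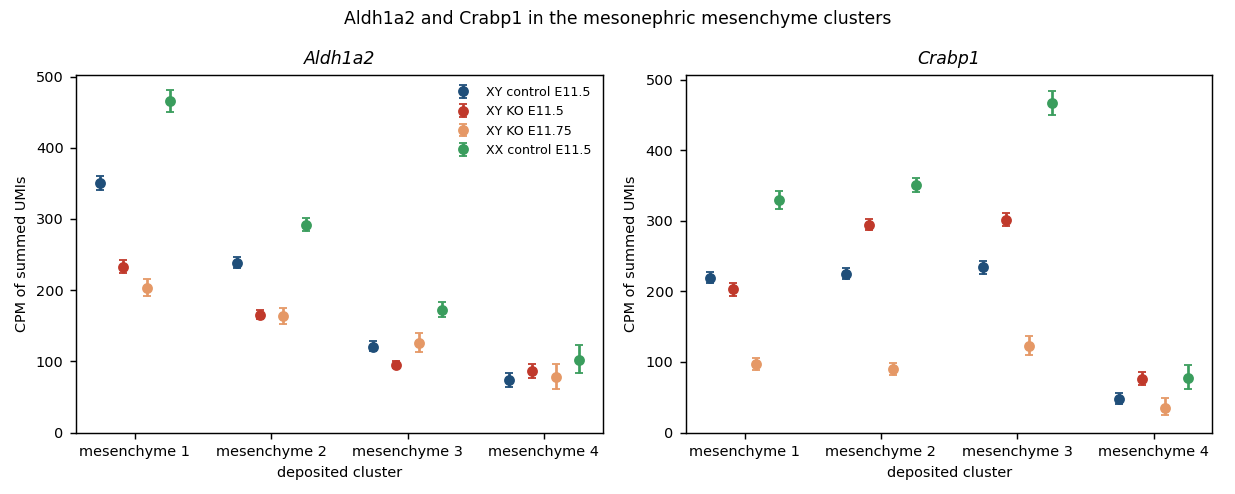
CPM of summed UMIs with 95% Poisson intervals for Aldh1a2 (left) and Crabp1 (right) in the 4 deposited mesenchyme clusters, each point being 1 sample. Aldh1a2 is highest in cluster 1 and lowest in cluster 4 and both KO samples lie below both controls in clusters 1 and 2, while Crabp1 is lowest in the E11.75 KO in every cluster.

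Aldh1a1 encodes an ALDH1A enzyme known from adrenal and Sertoli cells (chr19:20492715-20643465). Adrenal cells held 575 CPM in the XY control, 402 in the E11.5 KO and 489 in the XX control, and Sertoli cells held 154 in the XY control and 206 in the E11.75 KO. In pre-supporting cells the levels were 71.5 (65.8 to 77.7), 29.7 (25.5 to 34.4), 76.7 (68.9 to 85.1) and 33.8 CPM (29.5 to 38.4). As for Cyp26b1, the E11.5 KO and the XX control were the low pair, but the E11.75 KO overlapped the XY control. The log2 ratios were −1.27 (−1.52 to −1.02), 0.10 and −1.08 (−1.31 to −0.86). Without the cells holding a Sertoli marker UMI they were −1.21, 0.11 and −0.95. After thinning, 15.7%, 6.50%, 14.8% and 7.74% of pre-supporting cells had an Aldh1a1 UMI (21.2%, 11.53%, 21.6% and 29.0% unthinned), against 0.540% to 1.19% of germ cells.

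Coelomic epithelium separated the low pair, with Aldh1a1 at 32.1, 11.52, 24.7 and 38.3 CPM, the XX control being the highest. Types with little Aldh1a1 held 6.22, 2.30, 4.76 and 3.48 CPM in mesenchyme, where the E11.5 KO interval (1.87 to 2.797) lay below the others, and 39, 1, 8 and 2 UMIs in endothelium, too few in the E11.5 KO and the XX control to order them. In the E11.75 KO it was above the XY control in supporting-like cells (54.7 against 35.3 CPM) and tubules (21.6 against 14.4 CPM), which relative to the median gene did not pass the fold (log2 0.53 and 0.45). Over all cells of a sample the gene stood at 28.5, 9.46, 24.6 and 18.1 CPM. The 5 markers of adrenal cortex cells summed to 108, 36.0, 25.5 and 163 CPM in pre-supporting cells, and their part in the Aldh1a1 values there was not tested.

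Aldh1a3, the third enzyme of the family (chr7:66390890-66427517), was a gene of the mesonephric tubules, the ducts that include the Wolffian duct. The tubules held 31.5, 4.83, 68.9 and 25.9 CPM. The E11.5 KO was 6.42-fold below the XY control (log2 −2.68, interval −3.31 to −2.15) and the E11.75 KO 2.19-fold above it (log2 1.13, 0.87 to 1.39). Of the 285, 29, 233 and 202 Aldh1a3 UMIs of tubule cells, 277, 19, 228 and 196 lay in tubule cluster 1, where the tubule marker Gata3 was highest too (332, 372, 518 and 269 CPM), whereas clusters 2 and 3 held at most 2.64 CPM of Aldh1a3 in any sample.

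Cluster 1 made up 31.3%, 4.78%, 33.4% and 25.5% of the tubule cells, with only 44 cells in the E11.5 KO. Within cluster 1 Aldh1a3 was at 94.997 (84.1 to 107), 50.5 (30.4 to 78.8), 205 (179 to 234) and 82.9 CPM (71.7 to 95.4), and the log2 ratio of the E11.5 KO inside the cluster was −0.88 (−1.67 to −0.24), from 19 UMIs. The part of the cluster sizes in the difference over all tubule cells was not tested. Supporting-like cells, whose marker list shares Pax8 with that of the tubules, held 18.7, 7.26, 36.0 and 9.68 CPM with the same order of the XY samples, and in the E11.5 KO their interval overlapped that of the tubules. In mesenchyme the levels were 1.99, 3.68, 3.31 and 2.19 CPM, and among the 4 mesenchyme clusters the highest was mesenchyme 4 with 11.4, 25.2, 18.9 and 25.7 CPM.

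**Figure D5:**
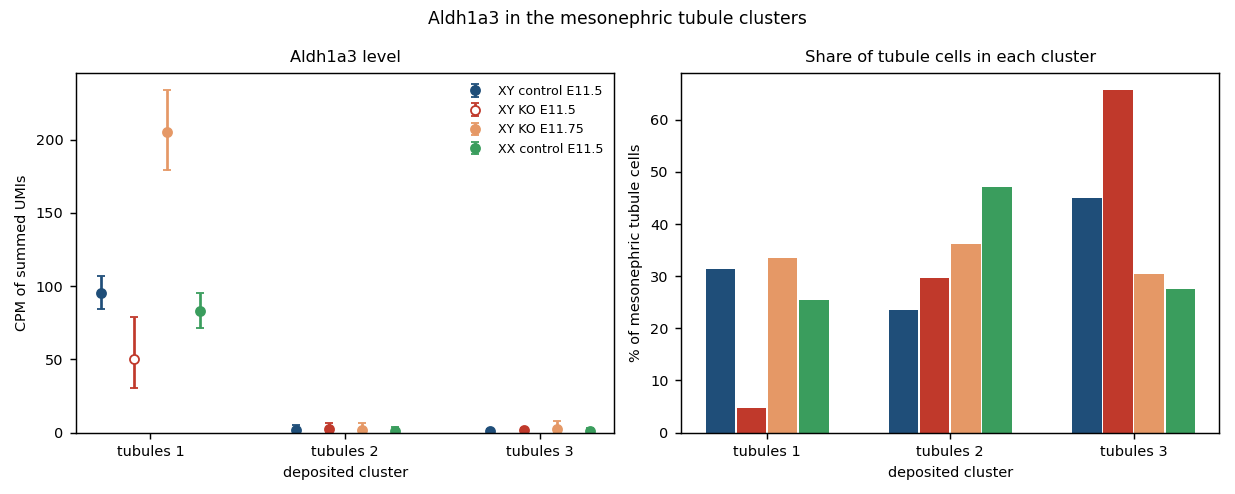
Aldh1a3 level with 95% Poisson intervals in the 3 tubule clusters (left) and the share of tubule cells in each cluster (right, bars from 0), by sample; the open point rests on under 50 cells. Aldh1a3 is at most 2.64 CPM in clusters 2 and 3 of the 4 samples, and cluster 1 is 4.78% of tubule cells in the E11.5 KO and 25.5% or more in the other samples.

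Dhrs3 encodes a reductase that lowers the supply of retinal and is itself known to be induced by retinoic acid (chr4:144892827-144928209). It was spread widely, at 81.4, 92.7, 69.7 and 96.1 CPM in pre-supporting cells, 70.8, 80.2, 104 and 57.6 in mesenchyme and 81.3, 66.7, 80.1 and 67.0 in supporting-like cells, and it was nearly absent from germ cells (3.21 to 3.73) and low in adrenal cells (2.20, 8.79 and 9.80 in the XY control, the E11.5 KO and the XX control, from 3, 8 and 12 UMIs). Interstitial progenitors, the precursors of steroid-producing and stromal cells, held 32.6, 50.9, 66.9 and 23.0 CPM. Both KO libraries were above both controls in this type, by log2 0.64 (0.35 to 0.94) and 1.04 (0.72 to 1.35) over the XY control. The first of these did not pass the fold under every setting (0.55 at the least). In mesenchyme as a whole the KO libraries were also above both controls, within 1.5-fold of the XY control. Within mesenchyme 3 the E11.75 KO was at 137 against 61.3 CPM (log2 1.16, 0.97 to 1.35), and in the other 3 mesenchyme clusters by log2 0.21 to 0.46 above the XY control.

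Crabp1 encodes a cytoplasmic protein that binds retinoic acid (chr9:54764748-54773110). Mesenchyme held 214, 258, 95.1 and 361 CPM, with no overlap of any of the 4 intervals. These cover counting error only. Between runs of the same sample Crabp1 differed by a median of 0.24 (log2) and at most 0.90, over 25 pairs of runs in all types. The E11.75 KO was lower in 10 of 11 types by log2 −1.78 to −0.64, with values of 11.1 against 30.7 CPM of the XY control in pre-supporting cells, 13.01 against 43.6 in tubules and 30.3 against 75.3 in mesonephric epithelium. The interval for Sertoli cells reached 0 (−1.61 to 0.01, from 16 UMIs). The gene has a short 3′ UTR of 234 bases, where the median gene has 1217, and relative to genes of like 3′ UTR length the mesenchyme ratio was −0.88 in place of −1.17. On that scale coelomic epithelium (−0.41), Sertoli cells (−0.47) and interstitial progenitors (−0.58) did not pass the fold. In pre-supporting, Sertoli, endothelial and supporting-like cells the levels of both samples lay below those of germ cells (38.0 and 18.0 CPM).

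The E11.5 KO and the XX control lay above the XY control for Crabp1 in mesenchyme as a whole and in several other types, but within mesenchyme 1 the E11.5 KO was below it (203 against 219.6 CPM, log2 −0.12, −0.20 to −0.03). That last difference was smaller than the median difference between runs (0.24). In mesonephric epithelium the levels were 75.3, 157, 30.3 and 117 CPM, a log2 ratio of 1.06 (0.91 to 1.21) for the E11.5 KO. The runs of the XX sample differed there (155 and 82.9 CPM), so the XX ratio of 0.63 was 0.14 with the lower run alone. In pre-supporting cells the levels were 30.7, 44.5, 11.1 and 61.3 CPM, in each sample below those of germ cells (38.0, 46.4, 18.0 and 67.6). Germ cells held 17.8% to 18.9% of the mesenchyme level of Crabp1 in every sample, while the 5 mesenchyme markers stood there at 2.82% to 4.17% of theirs. In pre-supporting cells the shares were 11.69% to 17.3% for Crabp1 and 11.4% to 15.4% for the markers, and the part of free mesenchyme RNA in the Crabp1 values was not tested. In the immune cells of the XY control, mesenchyme markers reached 19.5%, Crabp1 45.0% and Aldh1a2 36.9% of the mesenchyme level, more than in the immune cells of the other samples, and the lower immune values of the XX control (Crabp1 log2 −1.38, Aldh1a2 −1.43) move with that background, whose part in them was not tested. Over the settings tried the Aldh1a2 value ranged from −2.01 to −0.04 and that of Crabp1 from −2.05 to 0.53, the last with run 1 of the XY control alone. Adrenal cells of the XX control held 76.0 CPM of Crabp1 against 21.2 (log2 1.82, 1.22 to 2.49), which ranged from 0.37 to 2.44, and the E11.5 KO value in adrenosympathetic cells (85.7 against 54.3 CPM, log2 0.66) was 0.02 as a mean over cells.

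Among the receptors, Rara (chr11:98927818-98974942) was found in every type. It was highest in adrenosympathetic cells, the neural crest derivatives of the tissue, at 73.8, 64.6, 81.5 and 59.9 CPM. Pre-supporting cells held 36.3, 40.3, 50.1 and 42.6 CPM and germ cells the least of the types with at least 50 cells in each sample (15.2, 15.6, 22.5 and 11.4). Over 31 counted pairs in the 3 comparisons 2 passed the fold. In E11.75 KO endothelium Rara stood at 47.4 against 29.9 CPM, where 16% of all genes were higher. In XX supporting-like cells it stood at 24.2 against 47.4 CPM, where 9.45% of all genes were lower. The endothelial log2 ratio was 0.45 with TMM factors and 0.51 relative to the median gene, short of the fold.

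Rarb (chr14:16430839-16819156) was a mesonephric gene with 65.1, 59.7, 53.1 and 64.0 CPM in mesonephric epithelium and 50.4, 48.0, 60.4 and 48.0 in mesenchyme. Pre-supporting cells held only 6.21, 5.81, 5.01 and 6.34 CPM. None of its 18 counted pairs passed the fold, the widest being log2 −0.58 in XX endothelium. Of all gene and type pairs, 2.11%, 15% and 1.89% were higher in the 3 comparisons and 5.13%, 7.04% and 9.53% lower. Rarb carries the miR-17 site shown and is the textbook gene that retinoic acid induces through repeats in its own promoter. Promoters from RefSeq (GRCm38.p6, 250 bases before to 50 after the start) were therefore searched for direct repeats on both strands, in which any 2 of the motifs AGGTCA, or AGTTCA, or GGGTCA, or GGTTCA follow each other with 1, 2 or 5 bases between. Rarb and Cyp26a1, also known to be induced by retinoic acid, were the members with one, in each case with 5 bases between the motifs, which are in capitals.
Rarb, chr14:16575513-16575529, 53 bases before the start: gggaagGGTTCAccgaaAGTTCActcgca
Cyp26a1, chr19:37697776-37697792, 32 bases before the start, repeat on the opposite strand: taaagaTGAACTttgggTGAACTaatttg
Of 32851 promoters, 32 (0.0974%) held such a repeat with 5 bases between and 0.588% held any of the 3 spacings. In the promoters of the other members no such repeat was found, and that of Aldh1a3 was not analysed here.

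Rarg (chr15:102234938-102257517) marked endothelium at 42.1, 39.3, 40.2 and 29.1 CPM, about the same in the 3 XY samples. Mesenchyme held 20.7, 16.2, 20.1 and 16.6 CPM and pre-supporting cells 2.66 at most. In germ cells it was at 13.04, 7.33, 8.34 and 9.97 CPM. The values of the KO libraries rest on 15 and 13 UMIs, and the interval of the E11.75 KO ratio spanned 0 (log2 −0.60, −1.61 to 0.20).

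Aldh1a1 and Cyp26b1, a source and a clearing enzyme, were detected together in Sertoli and pre-supporting cells. After thinning to 3000 UMIs, 107 of 701 Sertoli cells of the XY control had both an Aldh1a1 and a Cyp26b1 UMI. Aldh1a1 was found in 33.6% of the Sertoli cells with Cyp26b1 and in 31.1% of those without. In Sertoli cells of the E11.75 KO these shares were 41.0% and 43.5%. In pre-supporting cells they were 14.7% and 16.1%, 6.20% and 6.55%, 14.02% and 14.99%, and 5.00% and 8.09%, the last from 2 cells with both. Coelomic epithelium gave 17.9% and 7.92% in the XY control and 23.1% and 5.11% in the E11.75 KO, from 10 and 3 cells with both, and no such cell in the E11.5 KO. In mesenchyme, Aldh1a2 was found in 32.2%, 21.7%, 26.0% and 37.5% of the few cells with Cyp26b1 (146, 166, 77 and 24 cells) and in 41.3%, 31.3%, 33.0% and 49.1% of the cells without, lower beside Cyp26b1 in each of the 4 samples. Cells of the 4 mesenchyme clusters are pooled in these shares, and in the XY control Cyp26b1 was higher in clusters 3 and 4 (11.9 and 10.7 CPM) than in clusters 1 and 2 (6.80 and 6.24 CPM), the reverse of Aldh1a2.

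Of 37 further genes of the pathway listed for comparison, 36 were in the table and 24 could be counted in pre-supporting cells. In the E11.5 KO, 3 of the 24 were higher (2.71% of all genes in this type) and 1 lower (7.77%), with a median log2 ratio of −0.12 where all genes had −0.09. Crabp2, the carrier that delivers retinoic acid to its receptors, was at 14.3, 27.7, 12.2 and 32.3 CPM, and Rdh10, the dehydrogenase that makes retinal, at 17.8, 8.62, 20.7 and 9.58. In both genes the E11.5 KO and the XX control lay together on one side and the E11.75 KO with the XY control on the other. Fabp5, a fatty acid carrier that also binds retinoic acid, was higher in the E11.5 KO alone (103, 198, 85.9 and 107 CPM), and Rarres2, the chemerin gene, stood at 18.8, 32.5, 23.5 and 17.3.

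In the E11.75 KO, 4 of 24 were higher (18.1% of all genes) and 2 lower (7.01%). The higher ones were the receptor partner Rxra (40.5 against 25.4 CPM), the cofactors Ncoa2 (61.7 against 37.4) and Nrip1 (155 against 101), and Rec8, a meiotic cohesin that responds to retinoic acid (29.0 against 10.02). Relative to the median gene of this type, a scale added after seeing the data, Rxra (log2 0.49), Ncoa2 (0.54) and Nrip1 (0.43) did not pass the fold and Rec8 (1.34) did. The lower ones were the dehydrogenases Dhrs4 (42.7 against 89.7) and Adh5 (133 against 231). In this type of the E11.75 KO the Spearman correlation of ratio with 3′ UTR length was 0.40. The ratios of Rec8, Dhrs4, Adh5 and the other pathway genes were not set against genes of like 3′ UTR length. In the XX control, 3 were higher (1.98%), namely Crabp2, Rec8 (17.1 CPM) and Nr2f1 (72.3 against 47.8), and 2 lower (8.08%), namely Rdh10 and Rxra (14.3). Stra8 had no UMI in germ cells of the 3 samples at E11.5 and 8 UMIs (5.13 CPM) in those of the E11.75 KO.

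The genes whose levels ran most alike over the 48 type and sample pairs are given as a description, since the pairs share libraries and cell types. Among 11856 genes, Aldh1a1 was closest to Aldh1a7 (Pearson r = 0.93 of log2(CPM + 10)), a near copy of it with which reads can be shared, and to the metabolic genes Me1 (0.92) and Fdxr (0.92). Aldh1a2 ran with Hoxc5 (0.90), Gas1 (0.88) and Hoxc8 (0.88), and Rarb with Hoxa3, Foxp1 and Hoxa5 (0.87 to 0.90). For Cyp26b1 they were Ptpn12, C130074G19Rik and Jcad (0.89 to 0.91), for Rarg Fmnl3, Ebf1 and Nes (0.85 to 0.88) and for Rara Magee1, Lrch3 and Pja2 (0.86 to 0.88). Aldh1a3 was nearest to Celsr2, Spock2 and Sema3b (0.80 to 0.81), Crabp1 to Ptx3, Efemp1 and Tagln (0.76 to 0.77), and Dhrs3 to Zyx, Slc29a3 and Dnase1l1 (0.78 to 0.79). Between the members themselves the highest value was that of Aldh1a2 and Rarb (0.70), and the lowest that of Aldh1a1 and Rarg (−0.56).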

How the data were processed

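Single-cell libraries (10x 3′ chemistry, methanol-fixed cells) were aligned by the authors with Cell Ranger 6.1.1 to mm10 and processed with Seurat. Cells with 30000 or more UMIs were removed from XY samples by the authors but not from the XX sample, and doublets were removed with DoubletFinder. The deposited table holds raw UMI counts (all 126435795 values above 0 were whole) for 52745 cells, with the authors' cell types and clusters. The share of mitochondrial and beta globin UMIs of each cell, in percent, was deposited by the authors and used only to check the filter limits. Integration was used for naming only. UMIs were summed by type and sample. Groups came from the sample labels. Levels are CPM with exact 95% Poisson intervals and ratios are log2 with a prior count of 0.5 and exact binomial intervals (Python 3.11.15, scipy 1.17.1). With 1 sample per group no count test was run, and the intervals leave out differences between embryos. Counting of folds was tested on simulated data. Alternatives were TMM factors (edgeR 4.0.16, R 4.3.3), other totals, the median gene, 3′ UTR length, minimum counts, the fold, thinning depth and single runs.

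The members, gene lists and markers were chosen with earlier results of these data known. Genes beside the members were named by rule: those of the pathway list past 1.5-fold in pre-supporting cells, and for each member with at least 1000 UMIs the 3 genes most correlated with it. Stra8, the mark of meiotic entry, and the label checks Mir17hg, Xist and Gata3 were named outside that rule. A sequence table for proteins was not used here.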

Additional observations from a re-analysis of the deposited data

How the results depend on the processing

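Most counts of member and type pairs moved little between settings (61 of 76 stayed within 1.5 times). With a minimum of 500 UMIs the E11.5 KO had 3 higher and 3 lower of 27 pairs (1.06% and 2.16% of all gene and type pairs), the E11.75 KO 3 higher and 4 lower of 23 (9.58% and 7.89%), and the XX control 3 lower of 25 (5.09%). A 2-fold limit left 1 higher and 7 lower of 64 in the E11.5 KO (0.508% and 1.17% of all pairs), 3 and 8 of 66 in the E11.75 KO (2.81% and 1.25%) and 1 and 6 of 66 in the XX control (0.514% and 1.53%); fewer pairs can pass both settings by construction. In the E11.5 KO the higher pairs were 3 with run 2 of the XY control alone, where 2.76% of all pairs were higher. In the E11.75 KO they were 4 with TMM factors, 4 relative to the median gene and 5 relative to genes of like 3′ UTR length, where 6.70%, 8.36% and 7.71% of all pairs were higher. Among the ratios past the fold the direction turned for 3, namely Crabp1 in XX immune cells with run 1 of the XY control alone (0.53), Aldh1a2 in mesenchyme of the E11.5 KO within mesenchyme 4 (0.23) and Cyp26b1 in tubules of the E11.5 KO within tubule cluster 1 (1.06), the last 2 settings being chosen after seeing the data. Ratios within the fold were not counted here, and several of them turned within a cluster. Among these were Aldh1a2 in mesenchyme of the E11.75 KO within mesenchyme 3 (0.06) and mesenchyme 4 (0.09) and Crabp1 in mesenchyme of the E11.5 KO within mesenchyme 1 (−0.12). Cyp26b1 in mesenchyme of the E11.5 KO within mesenchyme 2 (−0.46) and Rarg in mesenchyme of the E11.75 KO within mesenchyme 3 (0.45) were others. The cause was not tested. Of the other planned ratios, 688 stayed inside the counting interval of the main value and 37 left it in the same direction. Settings with another fold or another minimum count leave a ratio itself unchanged, so part of the 688 was fixed in advance. Over the planned settings Cyp26b1 in pre-supporting cells ranged from −1.56 to −1.38, −0.98 to −0.62 and −1.71 to −1.44 in the 3 comparisons, and Aldh1a1 from −1.40 to −1.12 in the E11.5 KO and −1.19 to −0.87 in the XX control. No paired analysis was possible because each group holds 1 sample. Without XX cells of 30000 or more UMIs, the XX ratio of Cyp26b1 in endothelium was −0.50 in place of −1.30. Single runs are repeats of 1 sample, not of embryos. Of the planned levels 416 left the interval of the reported value and 1404 stayed inside, and of the shares of cells 717 left it and 723 stayed inside. Levels of at least 100 UMIs were 0.852 to 1.68 times the reported ones as means over cells, 0.709 to 1.32 times with 1 run alone and 1.25 to 1.47 times when the totals left out genes of mitochondria, ribosomal proteins and globins.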
